A study of Mus musculus with 244 samples.

Results

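Oocytes of secondary follicles were compared with oocytes of primary follicles in the third batch of libraries, prepared on plates 5 and 6. The members were chosen by the stage in the sample title and the plate in the cell metadata, which gave 19 oocytes of the 244 cells and 59 oocytes of the series. Of these, 7 came from secondary follicles (5 on plate 5 and 2 on plate 6) and 12 from primary follicles (4 on plate 5 and 8 on plate 6). The ovaries were taken at postnatal day 6 from untreated mice of the outbred CD-1 strain, and every oocyte was freed from its follicle with Accutase after enzymatic digestion of the ovary. Secondary follicles were then stripped with a wider tip than primary follicles. Each library held 1 cell, amplified with SMART-Seq2, which copies polyadenylated RNA over its full length. The labels name no animal, so each stage counts as 1 sample. No test between stages was possible, and intervals cover counting error only, not animals or PCR copies.

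A primary follicle holds a growing oocyte in 1 layer of cuboidal granulosa cells, and a secondary follicle has gained further layers. The oocyte grows through both stages while arrested in meiotic prophase. It builds the zona pellucida, secretes growth factors such as BMP15 and GDF9 that act on granulosa cells, and stores RNA for use after fertilization. The transcription factors SOHLH1 and SOHLH2 act early in this growth, and genes of the *Khdc1*, *Oog* and *Fbxw* families are read mainly in oocytes.

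Genes differed in both directions. *Khdc1b* was higher in secondary oocytes on both plates, and *Adad2* and the early factor *Sohlh1*, which is not among the leading genes described below, were lower. Promoters of these genes and of the marker *Bmp15* are shown because the early factors SOHLH1 and SOHLH2 belong to the basic helix-loop-helix class, which binds the E-box. Each line gives 250 bases before and 50 after the start of a gene from RefSeq (GRCm38.p6), 5′ to 3′ on the strand of the gene, with every CANNTG (the E-box) in capitals. The windows are *Khdc1b* at chr1:21383306-21383605 (plus strand), *Bmp15* at chrX:6320675-6320974 (minus), *Sohlh1* at chr2:25847199-25847498 (minus) and *Adad2* at chr8:119612463-119612762 (plus).
Khdc1b: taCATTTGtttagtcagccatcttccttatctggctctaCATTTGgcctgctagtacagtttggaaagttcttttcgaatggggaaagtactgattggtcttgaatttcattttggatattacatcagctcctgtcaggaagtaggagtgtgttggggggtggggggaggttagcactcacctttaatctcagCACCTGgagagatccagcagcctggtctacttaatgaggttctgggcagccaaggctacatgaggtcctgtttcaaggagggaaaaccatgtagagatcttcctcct
Bmp15: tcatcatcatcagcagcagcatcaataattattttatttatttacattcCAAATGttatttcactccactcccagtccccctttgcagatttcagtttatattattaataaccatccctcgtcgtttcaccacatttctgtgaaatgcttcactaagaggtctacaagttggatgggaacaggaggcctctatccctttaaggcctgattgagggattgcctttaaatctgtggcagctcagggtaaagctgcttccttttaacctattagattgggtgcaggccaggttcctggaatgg
Sohlh1: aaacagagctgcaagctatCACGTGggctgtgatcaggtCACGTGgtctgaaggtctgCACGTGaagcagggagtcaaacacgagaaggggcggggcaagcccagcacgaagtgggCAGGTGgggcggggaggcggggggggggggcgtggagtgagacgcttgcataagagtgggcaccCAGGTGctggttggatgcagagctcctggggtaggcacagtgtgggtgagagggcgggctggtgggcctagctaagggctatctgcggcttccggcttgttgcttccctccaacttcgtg
Adad2: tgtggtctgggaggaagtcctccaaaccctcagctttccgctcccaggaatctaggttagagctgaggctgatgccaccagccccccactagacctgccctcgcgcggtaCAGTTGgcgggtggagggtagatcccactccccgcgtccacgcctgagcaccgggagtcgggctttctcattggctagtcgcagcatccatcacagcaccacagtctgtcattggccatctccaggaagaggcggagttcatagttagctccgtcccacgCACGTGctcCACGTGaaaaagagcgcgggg
The promoters held 3, 1, 5 and 3 matches to CANNTG in the order printed. The palindromic form CACGTG, which is contained in CANNTG and reads alike on both strands, was present 3 times in the window of *Sohlh1*, 2 times in that of *Adad2* (both after the RefSeq start), and in neither of the other windows. The span of *Adad2* given below, from GENCODE M21, begins further along this window, at base 119612747, and neither match lies wholly after that base. Of 32851 promoters of this length, 72.3% held CANNTG and 7.15% held CACGTG. Of the 760 compared genes with a promoter in the table, 12.1% held CACGTG. Among those lower on both plates it was present in 18 of 114 (15.8%), and among those higher on both plates in 0 of 10. Of the 12 leading lower genes described below, 8 had a promoter and 4 of these held CACGTG (*Acy1*, *Adad2*, *Rab5a* and *Timm8a1*), against 0 of the 8 leading higher genes with a promoter. Both sets of leading genes are small and were chosen from these data. The printed windows held 46.3%, 41.7%, 63.3% and 61% of G and C in the order printed. The part of base content in these counts was not tested. A match describes letters in this window and not a bound site.

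The libraries differed between stages in several ways that run beside the gene results. The total count per cell was 25744 to 74073 in secondary oocytes (median 61978) and 35696 to 139643 in primary oocytes (median 68073). Transcripts named only by a genomic clone (names that begin with RP23, RP24 or CH) took 45.01% to 64.8% of the counts in secondary oocytes and 24.4% to 44.7% in primary oocytes. This held within each plate, with 45.01% to 64.8% against 39.3% to 44.7% on plate 5 and 46.5% to 46.6% against 24.4% to 32.99% on plate 6. Thinned to 12000 counts, a secondary oocyte showed 925 to 1128 genes and a primary oocyte 1104 to 1264. Intronic reads were 5.15% to 7.94% in secondary and 4.12% to 4.76% in primary oocytes on plate 5. Mitochondrial reads were 0.386% to 0.937% against 0.0953% to 0.318% there. Both measures overlapped on plate 6, at 4.20% to 4.68% against 3.02% to 4.32% for intronic reads. Mitochondrial reads were 0.486% to 0.564% against 0.231% to 0.555% on that plate. Coding reads were 50.8% to 55.86% in secondary and 55.91% to 62.9% in primary oocytes over both plates, so the stages did not overlap. Aligned reads were 76.8% to 82.7% against 85.1% to 86.1% on plate 5 and overlapped on plate 6. Secondary replicate 6 had the fewest reads (579620) and detected genes (1750) of the 19 oocytes. The part of these measures in the gene results was not tested.

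**Figure D1:**
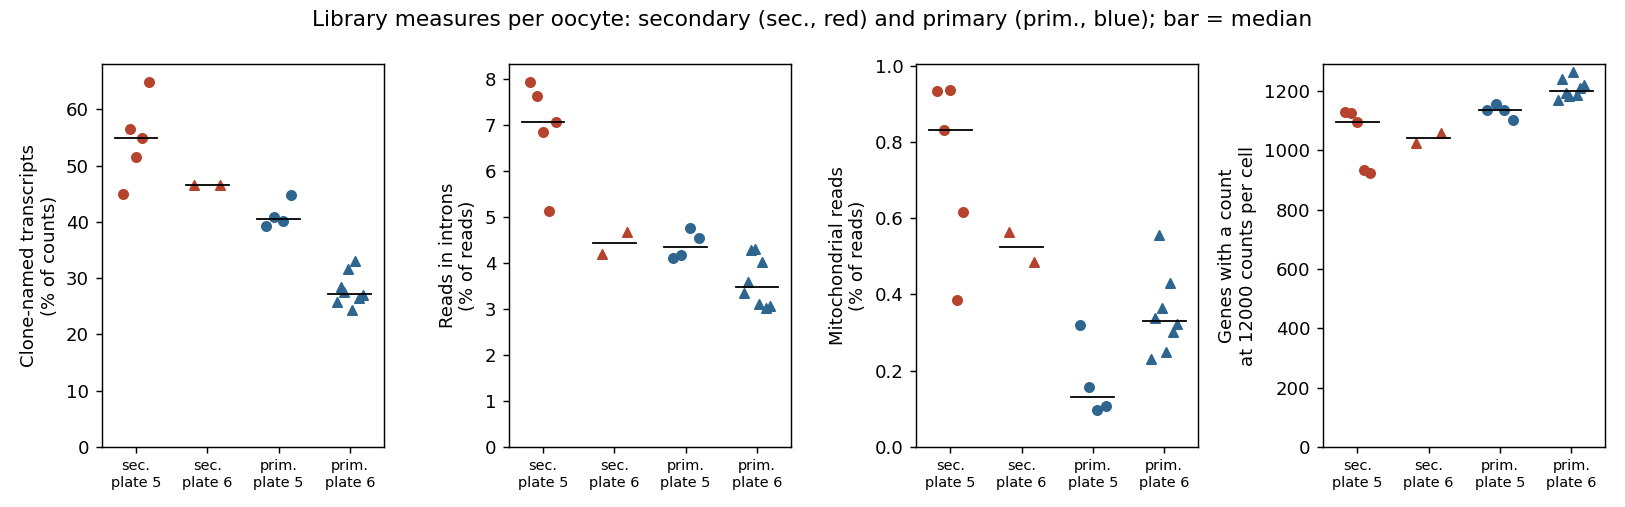
Library measures of each oocyte, with secondary oocytes (red) left of primary oocytes (blue) of the same plates, circles for plate 5, triangles for plate 6 and a bar at the median. The clone-named share of counts was 45.01% or more in every secondary oocyte and at most 44.7% in every primary oocyte.

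The cells carried oocyte markers. The 5 oocyte markers with values on both plates summed to 1.40% to 2.70% of counts in secondary and 0.803% to 1.996% in primary oocytes. Their median in somatic cells of the same plates was 0.00353%. Somatic markers had a median of 0.0228% in secondary and 0.0161% in primary oocytes, and 3.50% in somatic cells. *Cyp11a1*, *Gng13* and *Upk3b* were at 0 in both stages. The authors had removed oocytes that scored high on this somatic list, so a low share was set in advance. That filter removed a larger part of the secondary than of the primary oocytes. Of 16 markers of connective tissue and immune cells, 5 had reads in secondary and 4 in primary oocytes, with a median share of 0 in both. *Bmp15* had 25351 and 24618 CPM (counts scaled to the same total per cell) in the secondary oocytes of plate 6, against 5556 to 17826 CPM (median 10202) in the primary ones. On plate 5 its levels were 23893, 17696, 22264, 12488 and 14800 CPM in secondary oocytes, against 12881, 11578, 8038 and 9728 CPM in primary oocytes. The groups overlapped on plate 5 through 1 cell of each stage and did not overlap on plate 6. The log2 ratio, secondary over primary, was 0.82 on plate 5 (95% interval 0.74 to 0.90) and 1.10 on plate 6 (1.02 to 1.18). *Dazl*, which encodes a germ cell RNA-binding protein, had levels of 439 to 1599 CPM in secondary and 464 to 2115 CPM in primary oocytes. Its log2 ratio was -0.54 on plate 5 and -0.12 on plate 6, and over both plates it was -0.34 with totals of all shared genes and 0.14 when clone-named transcripts were left out of the totals.

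Of 14422 genes with values on both plates, 1220 reached 50 CPM in a stage that also had reads in 50% or more of its cells, and were compared. With a log2 ratio of at least 1 in size, 55 (4.51%) were higher in secondary oocytes and 399 (32.7%) were lower. This split depends on the scaling. The median log2 ratio of the genes compared was -0.75, which runs beside the larger share of clone-named transcripts in secondary oocytes. With clone-named transcripts left out of the totals, 169 genes were higher and 190 lower of 1373, and with TMM factors 127 were higher and 151 lower of 1220. Measured from the median of the genes compared, 154 (12.6%) lay at least 1 above and 96 (7.87%) at least 1 below. Medians of gene groups are therefore read against the median of the genes compared.

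Most secondary oocytes came from plate 5 and most primary oocytes from plate 6, so ratios within a plate carry the comparison. Within plate 5 and within plate 6 alike, 28 genes (2.30%) were at least 1 higher and 165 (13.5%) at least 1 lower. Taken singly, plate 5 had 6.31% of these genes higher and 25.4% lower, and plate 6 had 5.66% higher and 38.1% lower. The medians were -0.50 on plate 5 and -0.74 on plate 6, and 73 genes (5.98%) lay at least 1 above the median on both plates and 36 (2.95%) at least 1 below. The ratios of the 2 plates, which share no cell, had a Pearson correlation of 0.37 and a Spearman correlation of 0.35 across 1220 genes, given as a description because genes are not independent. They had the same sign in 77.5% of genes and lay on the same side of the plate medians in 61.5%. Of 152 genes at least 1 above the median on plate 5, 105 (69.1%) lay above it on plate 6, and of 127 at least 1 below, 81 (63.8%) lay below it on plate 6.

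**Figure D2:**
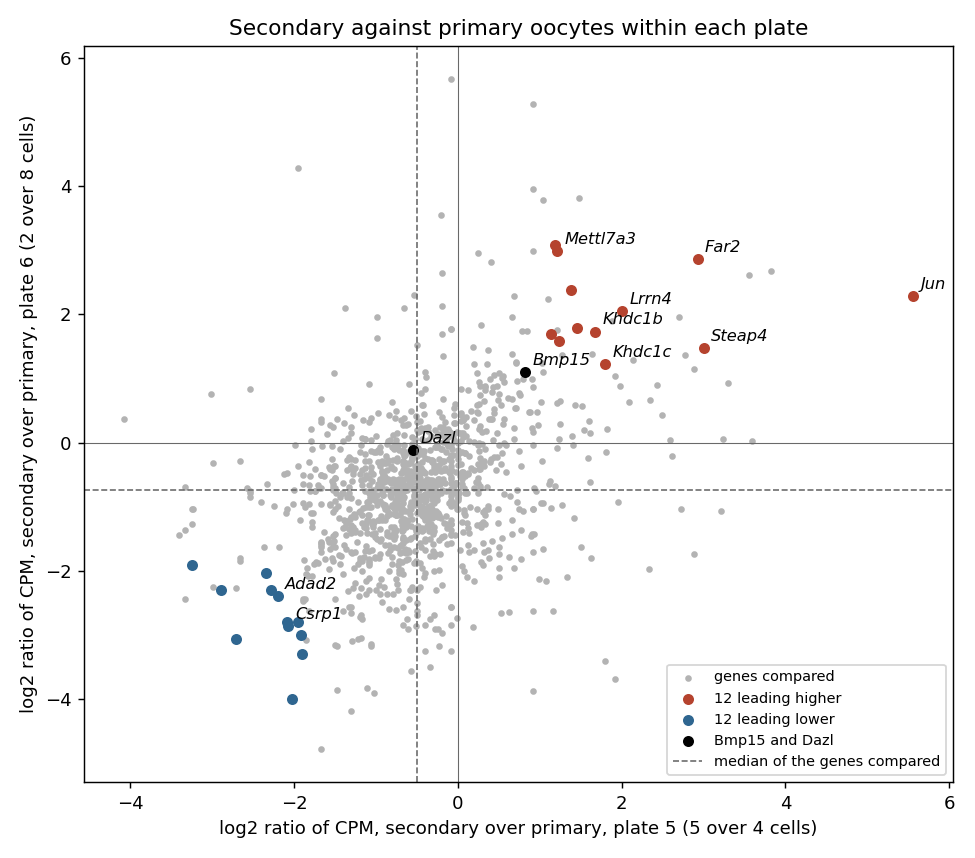
Log2 ratio of CPM, secondary over primary oocytes, within plate 5 (horizontal) and within plate 6 (vertical) for 1220 genes, with the 12 leading higher genes in red, the 12 leading lower genes in blue and dashed lines at the plate medians. The cloud sits below 0 on both axes, with medians of -0.50 and -0.74, and *Jun* lies farthest right at 5.56.

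Complete separation of the stages was rare. In 12 of 1220 genes (0.984%) every secondary oocyte was below every primary oocyte, and in 1 (0.0820%), the clone-named CH36-205D18.4, every one was above. Within each plate taken on its own, 39 genes (3.20%) were below and 2 (0.164%) above, the 2 being CH36-205D18.4 and *Khdc1b*. The share of all genes separate on only 1 of the plates was not counted. Statements that a gene did not overlap on 1 plate therefore describe its cells and have no background beside them. The 12 genes, named here after their values were seen, were *Adad2*, *Rab1b*, *Wasf3*, *Gga2*, *Vat1*, *Zfp598*, *Fam32a*, *Dgcr14*, *Gtse1*, *1810055G02Rik*, *Lonp1* and *Leo1*. Without clone-named transcripts in the totals, 6 (0.492%) stayed separate, the first 6 of these, and 3 (0.246%) lay above (*Bmp15*, CH36-205D18.4 and a further clone-named transcript). *Rab1b*, a GTPase of transport between the endoplasmic reticulum and the Golgi, had 822 to 1891 CPM in secondary oocytes (median 1325) and 2790 to 5894 CPM in primary oocytes (median 3936). *Gga2*, an adaptor of sorting at the Golgi, had 54.8 to 286 CPM in secondary and 319 to 1394 CPM in primary oocytes. *Vat1*, a vesicle membrane protein, had 51.997 to 236 CPM in secondary and 373 to 1620 CPM in primary oocytes. *Wasf3*, which acts on actin assembly, had 54.8 to 342 CPM in secondary and 479 to 1434 CPM in primary oocytes. *Lonp1*, the protease of the mitochondrial matrix, had 543 to 1418 CPM in secondary and 1468 to 2955 CPM in primary oocytes.

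*Adad2* (GRCm38 chromosome 8, bases 119612747 to 119616924, plus strand) separated the stages in every cell. It encodes a protein with a double-stranded RNA-binding domain, known in mouse from male germ cells. Its levels were 260, 623, 346, 473 and 274 CPM in the secondary oocytes of plate 5, against 1670, 2582, 1547 and 1974 CPM in the primary oocytes. On plate 6 they were 388 and 450 CPM in secondary oocytes, against 1496 to 4237 CPM (median 1914) in primary oocytes. No secondary oocyte reached the lowest primary oocyte on either plate. The log2 ratio was -2.20 on plate 5 (-2.59 to -1.83) and -2.39 on plate 6 (-2.93 to -1.89), it stayed between -2.51 and -2.22 over both plates when any single cell was left out, and it was -1.85 without clone-named transcripts in the totals.

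The other leading lower genes had fewer counts. *Csrp1*, which encodes a LIM domain protein, had 260, 282, 184, 39.4 and 110 CPM in secondary oocytes of plate 5, against 1475, 665, 193 and 677 CPM in primary oocytes. On plate 6 it had 183 and 106 CPM in secondary oocytes, against 484 to 1949 CPM in primary oocytes. One primary oocyte of plate 5 lay within the range of the secondary ones, and plate 6 did not overlap. The log2 ratio was -2.07 on plate 5 (-2.65 to -1.53) and -2.86 on plate 6 (-3.83 to -2.04). *Pinlyp*, named for a phospholipase A2 inhibitor domain, was at 78.0, 161, 23.05, 0 and 0 CPM in secondary oocytes of plate 5, against 284, 426, 193 and 451 CPM in primary oocytes. On plate 6 it had 22.8 and 79.5 CPM in secondary and 151 to 382 CPM in primary oocytes. The stages did not overlap within either plate, and the log2 ratio was -2.28 on plate 5 and -2.29 on plate 6.

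*Rab5a*, the GTPase of early endosomes, had 0, 40.2, 23.05, 355 and 110 CPM in secondary oocytes of plate 5, against 195, 213, 580 and 282 CPM in primary oocytes. One secondary oocyte, replicate 4, overlapped the primary ones, and without it the log2 ratio over both plates was -2.69 in place of -1.52. *Map3k15*, a MAP kinase kinase kinase, was lower in all 5 secondary oocytes of plate 5 (0 to 78.8 CPM) than in the 4 primary ones (108 to 162 CPM), and overlapped on plate 6. *Acy1*, an aminoacylase, had 0 and 22.8 CPM in secondary oocytes of plate 6, against 43.99 to 513 CPM in primary oocytes, and overlapped on plate 5. *Timm8a1*, a carrier of proteins through the mitochondrial intermembrane space, had log2 ratios of -2.72 on plate 5 and -3.06 on plate 6 from 5 counts in secondary and 57.2 in primary oocytes. *Elmsan1*, *Cdr2l*, *Phlda1*, *Alg5* and *Gsto1* rested on 2 to 4 counts over all secondary oocytes.

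Of the genes higher on both plates, *Khdc1b* (GRCm38 chromosome 1, bases 21383556 to 21386373, plus strand) was the most abundant of the leading genes. Its levels on plate 5 were 20779, 9925, 5944, 5803 and 7446 CPM in secondary oocytes, against 5434, 3260, 1641 and 1549 CPM in primary oocytes. On plate 6 they were 25894 and 15233 CPM in secondary oocytes, against 3106 to 12000 CPM (median 6170) in primary oocytes. The stages did not overlap within a plate but did overlap across plates, since several primary oocytes of plate 6 lay above the lowest secondary oocytes of plate 5. The log2 ratio was 1.67 on plate 5 (1.54 to 1.81) and 1.73 on plate 6 (1.64 to 1.83). *Khdc1c*, its neighbour on chromosome 1, had 731, 726, 257, 65.0 and 226 CPM in secondary oocytes of plate 5, against 288, 40.7, 92.3 and 28.2 CPM in primary oocytes. Its log2 ratio was 1.80 on plate 5 and 1.22 on plate 6, with overlapping cells on both. The genes of this family are near copies, and reads may have been split between them.

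**Figure D3:**
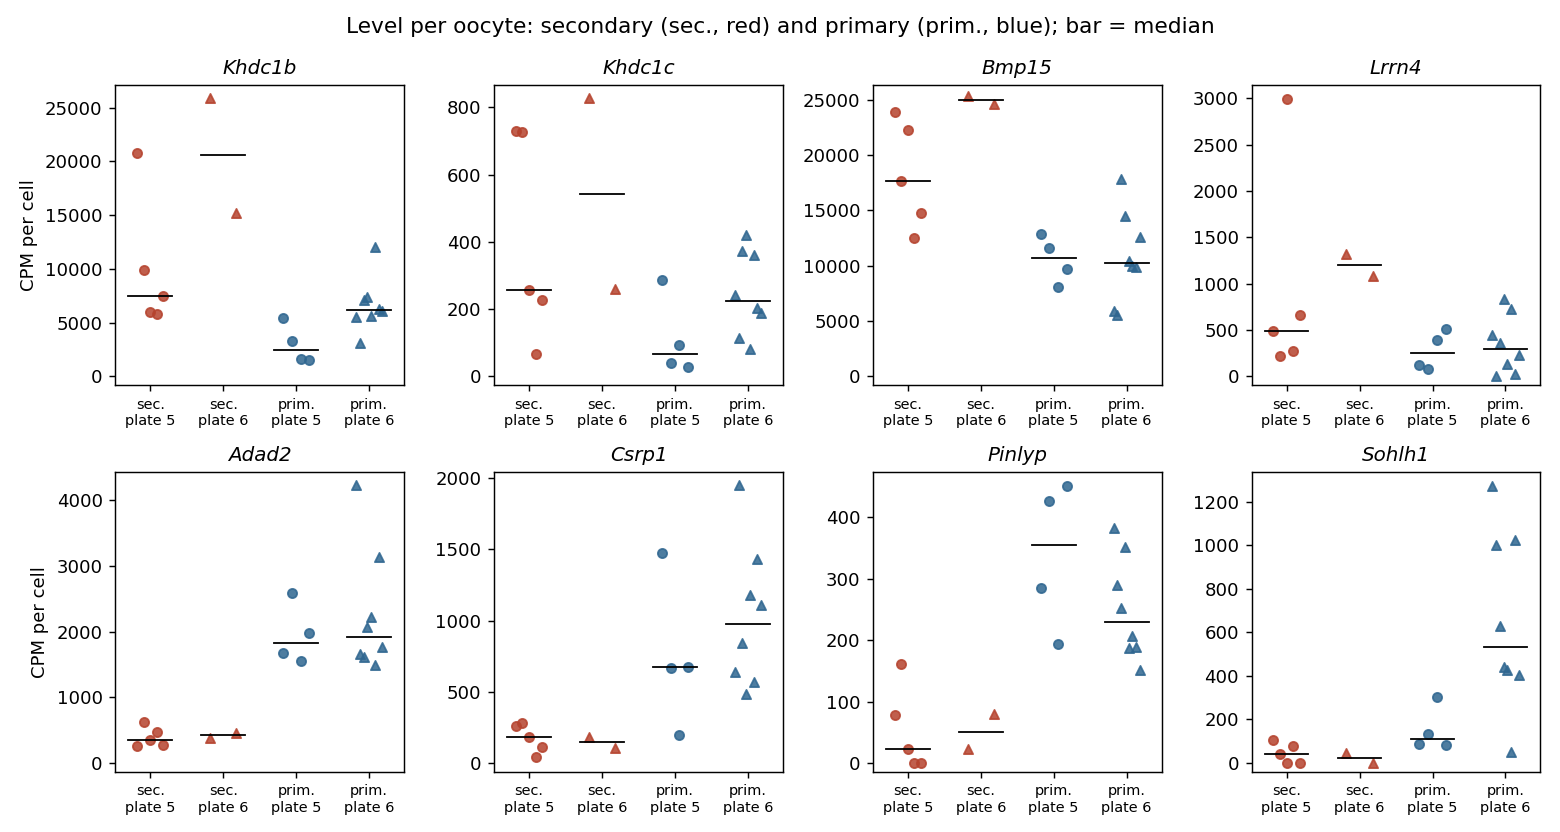
Level in each oocyte (CPM) of 4 genes higher (top) and 4 genes lower (bottom) in secondary oocytes, which stand left (red) of primary oocytes (blue), with circles for plate 5, triangles for plate 6 and a bar at the median of each group. *Adad2* is at most 623 CPM in every secondary oocyte and at least 1496 CPM in every primary oocyte.

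*Lrrn4*, which encodes a membrane protein with leucine-rich repeats, had 494, 221, 2996, 276 and 658 CPM in secondary oocytes of plate 5, against 124, 79.9, 387 and 508 CPM in primary oocytes. On plate 6 it had 1325 and 1086 CPM in secondary oocytes, against 0 to 836 CPM (median 299) in primary oocytes. The stages overlapped on plate 5 and not on plate 6. The log2 ratio was 2.01 on plate 5 (1.52 to 2.53) and 2.05 on plate 6 (1.63 to 2.47), and over both plates it was 1.31 without secondary replicate 3 in place of 1.95. *Cldn8*, a claudin of tight junctions, had reads in every oocyte, with 54.8 to 241 CPM in secondary and 16.8 to 155 CPM in primary oocytes. Its log2 ratio was 1.24 on plate 5 (0.13 to 2.46) and 1.58 on plate 6 (0.23 to 2.88). *Dppa2*, a gene of early embryos and germ cells, had log2 ratios of 1.38 on plate 5 (0.62 to 2.24) and 2.37 on plate 6 (1.33 to 3.51).

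Several of the leading higher genes rested on few cells. *Jun*, a subunit of the AP-1 transcription factor, had 962, 161, 0, 0 and 274 CPM in secondary oocytes of plate 5, against 0, 26.6, 0 and 0 CPM in primary oocytes. Its log2 ratio over both plates was 4.37, and it was 2.99 without secondary replicate 1. *Mettl7a3*, a methyltransferase-like gene with close copies, had 1386 and 3153 CPM in secondary oocytes of plate 6, against 0 to 567 CPM in primary oocytes, but at most 110 CPM in any oocyte of plate 5. Without secondary replicate 7 its log2 ratio over both plates was 0.71 in place of 1.94. *Irf2bpl* had reads in 2 of 5 secondary and 1 of 4 primary oocytes of plate 5, and at 411 and 503 CPM in both secondary oocytes of plate 6 it overlapped the highest primary oocyte (478 CPM). *Steap4*, a metalloreductase, had 371 and 594 CPM in secondary oocytes of plate 6, against 0 to 509 CPM in primary oocytes, and without secondary replicate 5 its log2 ratio over both plates was 0.28 in place of 0.89. *Far2*, a fatty acyl-CoA reductase, had 25.4 counts in secondary and 7 in primary oocytes. *Hspb1*, a small heat shock protein, had 0 counts in the primary oocytes of plate 5. Its log2 ratio there was 1.45 with that group set to a floor of 3 counts, and the lower end of its interval was 0.90.

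Some of these genes are abundant in somatic cells. *Jun* was at 10283 CPM and *Inha*, the inhibin alpha subunit secreted by granulosa cells, at 25724 CPM in the somatic cells of the same plates. *Inha* had 0 to 206 CPM in secondary and 0 to 241 CPM in primary oocytes, with log2 ratios of 1.14 on plate 5 (-0.33 to 2.81) and 1.70 on plate 6 (0.33 to 3.03). Of the 28 genes higher on both plates, 8 (28.6%) had a somatic level at least 10 times that in primary oocytes, against 2.46% of all genes compared and 2.42% of the 165 lower genes. The 28 were chosen for a primary level below the secondary one. Their median in primary oocytes was 65.1 CPM, against 234 CPM for all genes compared and 227 CPM for the lower genes. A low primary level raises this share by itself, so the share is partly set by the choice of genes. In the other direction, 7 of the 28 (25%) had a somatic level at least 10 times below that in primary oocytes. The same held for 16.97% of all genes compared and 7.27% of the 165 lower genes. Of the 73 genes at least 1 above the median on both plates, 17.8% were at least 10 times higher in somatic cells and 36.99% at least 10 times lower. *Krt8*, a keratin of epithelial cells and the other somatic marker compared, had a log2 ratio of 1.07 over both plates, -0.54 on plate 5 and 2.29 on plate 6, where secondary replicate 7 had 602 CPM and the other secondary oocyte 0. With single cells left out its ratio over both plates was as low as -1.18. The somatic marker share was 0 to 0.0260% in secondary and 0.00282% to 0.0186% in primary oocytes of plate 5, and 0.0228% and 0.0708% in the secondary and 0 to 0.0590% in the primary oocytes of plate 6. The part of somatic RNA in these ratios was not tested. Of the 28, 14 (50.0%) carried the names of clones or predicted genes, against 12.46% of all genes compared and 10.3% of the 165 lower genes.

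The *Oas1*, *Khdc1* and *Oog* families, read mainly in oocytes, had the highest median of the gene groups with at least 5 members compared. Of 5 members compared, 2 were higher (*Khdc1b* and *Khdc1c*) and 0 lower, where 4.51% of all genes were higher and 32.7% lower. Their median log2 ratio was 0.92, or 1.67 above that of all genes. The median was 1.60 on plate 5 and 0.34 on plate 6. *Oog3* had 2041, 2051, 4571, 1422 and 361 CPM in secondary oocytes of plate 5, against 1060, 1544, 82.9 and 298 CPM in primary oocytes, a log2 ratio of 1.60 (1.32 to 1.90). On plate 6 its log2 ratio was 0.34 (0.06 to 0.62). *Oas1d*, a member of the 2'-5' oligoadenylate synthetase family, was below 0 on both plates, at -0.33 and -0.97.

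Within plate 5, over all 2096 genes that passed the minimums there, 109 (5.20%) were higher and 352 (16.8%) lower in secondary oocytes. Measured from the median of that plate, 215 (10.3%) lay at least 1 above and 155 (7.40%) at least 1 below. The *Oas1*, *Khdc1* and *Oog* families then gave 5 of 8 members higher and 0 lower, with a median log2 ratio of 1.49 against -0.40 for all genes. *Oog1*, which was listed on plate 5 and not on plate 6, had 889, 1890, 2081, 1313 and 1667 CPM in secondary oocytes, against 695, 606, 137 and 191 CPM in primary oocytes. No secondary oocyte overlapped the primary ones, and the log2 ratio was 1.85 (1.56 to 2.15). *Oog4* overlapped, with 325 to 1546 CPM in secondary and 353 to 503 CPM in primary oocytes.

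Genes encoding the oocyte *Fbxw* proteins, putative substrate adaptors of ubiquitin ligases, were listed with other ubiquitin genes. Over all genes of a plate, the median of this list lay 0.98 above that of all genes on plate 5 and 1.06 on plate 6. For the 4 members compared on both plates it lay 1.48 and 0.07 above. On plate 5, 4 of 9 members of the oocyte *Fbxw* and ubiquitin list were higher and 1 lower (*Ube2s*, not an *Fbxw* gene). Of the 2096 genes there, 109 (5.20%) were higher and 352 (16.8%) lower. On plate 6, over 1986 genes of which 137 (6.90%) were higher and 580 (29.2%) lower, 3 of 10 were higher and 0 lower. Among the 4 compared on both plates, *Fbxw18* and *Fbxw24* had log2 ratios of 0.95 and 1.13 on plate 5 but -0.75 and -0.59 on plate 6. *Fbxw26* was above 0 on both, at 1.01 (0.75 to 1.28) and 0.64 (0.33 to 0.96). *Fbxw22*, listed on plate 6 only, had 158 and 274 CPM in secondary oocytes, against 14.7 to 155 CPM in primary oocytes, with a log2 ratio of 1.63. The ratios for *Fbxw21* and *Fbxw19* on plate 6 were 1.44 and 1.28. These genes are close copies, and reads may have been split between them.

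Other oocyte genes were listed on plate 6 only. *Nlrp4a*, a member of an oocyte family of NLR proteins, had 3070 and 2146 CPM in secondary oocytes, against 504 to 1352 CPM (median 1028) in primary oocytes, with a log2 ratio of 1.33 (1.14 to 1.52). *Dnmt3l*, the cofactor of de novo DNA methylation in the growing oocyte, had 125 and 145 CPM in secondary oocytes, against 0 to 78.8 CPM in primary oocytes, a log2 ratio of 2.03 (1.02 to 3.02). Neither gene overlapped between stages. *Gdf9*, which encodes a secreted growth factor, had 20494 and 17861 CPM in secondary oocytes, against 9346 to 17158 CPM in primary oocytes, and its log2 ratio was 0.49 (0.42 to 0.55). The zona pellucida genes had log2 ratios of 0.16 for *Zp2* (0.12 to 0.20) and -0.21 for *Zp3* (-0.26 to -0.15). *Zp3* had 25384 and 25815 CPM in secondary oocytes, below the 27528 to 33277 CPM of the primary ones. The median of all 1986 genes of plate 6 was -0.54 on this scale.

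The early transcription factor *Sohlh1* was lower in secondary oocytes. Its levels were 104, 40.2, 0, 78.8 and 0 CPM in secondary oocytes of plate 5, against 88.8, 133, 304 and 84.6 CPM in primary oocytes. On plate 6 they were 45.7 and 0 CPM in secondary oocytes, against 51.6 to 1274 CPM (median 535) in primary oocytes. One secondary oocyte of plate 5 overlapped the primary ones, and plate 6 did not overlap. The log2 ratio was -1.67 on plate 5 (-3.03 to -0.46) and -4.77 on plate 6 (-7.82 to -2.90), and primary oocytes of plate 6 lay mostly above those of plate 5. *Sohlh2*, its partner, had a log2 ratio of 0.50 on plate 5 (-1.15 to 2.27) and -2.10 on plate 6 (-4.43 to -0.47). *Taf4b*, a subunit of the TFIID complex of gonads, was at 0.10 and 0.26. Of the oocyte transcription factors, 2 of 3 compared were lower over both plates (*Sohlh1* and *Sohlh2*), where 32.7% of all genes were, with a median of -1.31. The median was 0.10 on plate 5, with 1 of 3 lower, and -2.10 on plate 6, with 2 of 3 lower. Of all genes, 25.4% were lower on plate 5 and 38.1% on plate 6. *Tbpl2*, listed on plate 6 only, had a log2 ratio of -1.18 (-3.12 to 0.29).

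Antioxidant and redox genes had the largest share of lower members of the gene groups with at least 5 members compared. Of 7 compared, 6 were lower and 0 higher over both plates, where 32.7% of all genes were lower. Their median log2 ratio was -1.20, or -0.45 relative to all genes, and was -1.18 on plate 5 and -1.47 on plate 6. The 9 listed genes summed to 384 to 1108 CPM in secondary oocytes (median 798), against 1287 to 2929 CPM in primary oocytes (median 1560), so the stages did not overlap. Without clone-named transcripts in the totals the sums were 872 to 2158 CPM in secondary and 1702 to 4132 CPM in primary oocytes and overlapped, and the median log2 ratio was -0.72. *Txn1* (thioredoxin) had log2 ratios of -1.52 on plate 5 and -0.64 on plate 6, and *Prdx3*, a peroxidase of mitochondria, -1.54 and -0.60. *Gstp1*, a glutathione S-transferase, was at -1.18 and -3.04, and *Mgst3*, a microsomal one, at -1.01 and -1.47. The superoxide dismutases *Sod1* and *Sod2* were at -0.86 and -0.52 on plate 5 and -1.01 and -1.69 on plate 6. Over all genes of plate 5, with totals over that plate, 2 of 7 members were lower, where 16.8% of all genes were, and the median was -0.81.

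Nuclear and mitochondrially encoded genes of the respiratory chain both differed between plates. Of 16 nuclear genes compared, 10 were lower and 0 higher over both plates, where 32.7% of all genes were lower, with a median log2 ratio of -1.16. On plate 5 the median was -0.66 and 4 of 16 were lower, near the 25.4% of all genes there. On plate 6 the median was -1.41 and 11 of 16 were lower, where 38.1% of all genes were. *Ndufb7*, a subunit of complex I, was at -1.89 and -2.47, and *Ndufa11*, also of complex I, at -1.28 and -1.31. *Ndufa11* had 39.4 to 234 CPM in secondary and 155 to 575 CPM in primary oocytes. *Cox8a*, a subunit of complex IV, was at -0.58 (-1.43 to 0.26) on plate 5 and -3.56 on plate 6. Of 6 mitochondrially encoded genes, 2 were higher over both plates (*mt-Nd1* and *mt-Nd2*), where 4.51% of all genes were. The plates went apart, with a median of 1.20 on plate 5 and -0.81 on plate 6, where the median of all genes was -0.74. *mt-Co1*, a core subunit of complex IV, had 5584, 3378, 3826, 2245 and 2357 CPM in secondary oocytes of plate 5, against 2025, 1411, 1022 and 733 CPM in primary oocytes. On plate 6 it had 1576 and 742 CPM in secondary oocytes, against 1434 to 5550 CPM in primary oocytes. The stages were separate on plate 5, with secondary oocytes above, and overlapped on plate 6, with log2 ratios of 1.41 (1.20 to 1.64) and -1.17 (-1.49 to -0.87).

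Ribosomal protein genes were lower mainly on plate 6. Of 11 cytosolic ones compared, 8 were lower over both plates, where 32.7% of all genes were, with a median log2 ratio of -1.08. The median was -0.32 on plate 5, above the -0.50 of all genes there, and -1.57 on plate 6, below the -0.74 of all genes. On plate 5, 2 of 11 were lower, where 25.4% of all genes were, and on plate 6, 10 of 11, where 38.1% of all genes were. *Rpl17* was at -0.24 on plate 5 and -3.16 on plate 6. Of 10 mitochondrial ribosomal protein genes, 4 were lower over both plates, near the 32.7% of all genes. On plate 5, 2 of 10 were lower with a median of -0.35, and on plate 6, 6 of 10 with a median of -1.26. *Mrps2* was lower on both plates, at -1.58 (-2.27 to -0.92) and -1.97 (-2.95 to -1.13), and its stages did not overlap within a plate.

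**Figure D4:**
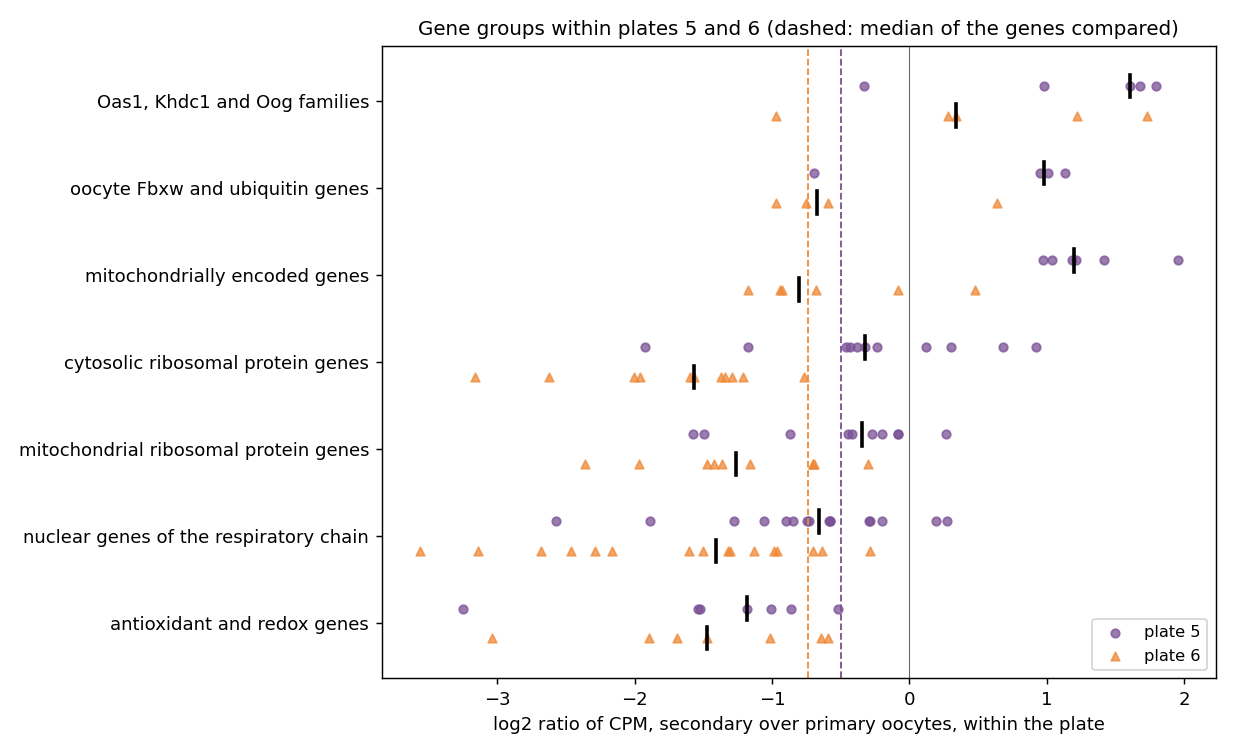
Log2 ratio of CPM, secondary over primary oocytes, for each compared member of 7 gene groups, with plate 5 as circles and plate 6 as triangles, a black bar at the median of the group on that plate and dashed lines at the medians of all genes compared. Antioxidant genes have medians of -1.18 and -1.47, while mitochondrially encoded genes have medians of 1.20 on plate 5 and -0.81 on plate 6.

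Genes of meiosis and signalling had shares of lower members near the 32.7% of all genes. Of 7 genes of meiotic arrest and resumption, 2 were lower over both plates, the inhibitory kinases of CDK1 *Wee1* and *Pkmyt1*. *Wee1* had 208 to 867 CPM in secondary and 508 to 2372 CPM in primary oocytes, with log2 ratios of -1.11 on plate 5 and -1.21 on plate 6. *Pkmyt1* was at -0.78 and -1.50. *Mos*, the kinase of the egg's meiotic arrest, had 0.26 (-0.02 to 0.55) on plate 5 and -0.41 (-0.69 to -0.13) on plate 6. *Foxo1*, a transcription factor of the insulin and growth factor pathway, was lower on both plates, at -1.15 (-1.72 to -0.60) and -1.31 (-1.95 to -0.77), and was 1 of 2 lower genes among 5 of Kit and mTOR signalling, whose median was -0.01 from that of all genes. The other was *Sesn2*, a stress-induced inhibitor of mTORC1, at -0.30 and -1.59. *Ddit4*, another such inhibitor, went in opposite directions, at -0.99 on plate 5 and 1.96 on plate 6.

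Few members of the remaining lists were compared, and their counts stand beside 32.7% of all genes lower and 4.51% higher. Of 7 genes for storing and translating maternal RNA, 0 were higher and 1 lower (*Zfp36l2*, which encodes an RNA-decay factor, at -1.10 over both plates but -0.39 on plate 5 and -0.71 on plate 6), with a median of -0.35, which was 0.12 with totals that left out the clone-named transcripts and 0.13 with TMM factors. Of 6 spindle and tubulin genes, 1 was lower (*Haus1*, of the augmin complex, at -1.50 and -1.04, from 6 counts in secondary and 32 in primary oocytes). Of 4 genes of endosomes, lysosomes and secretion, 2 were lower, *Rab5a* and the oligosaccharyltransferase subunit *Ddost*, which was at -1.03 on plate 5 and -1.23 on plate 6. Of 8 splicing factor genes 3 were lower and 0 higher, and of 7 translation factor genes likewise 3 and 0, both near the share of all genes. Of 3 proteasome genes, 0 were higher or lower. Immediate early genes, which respond to cell handling, had 1 of 4 higher (*Jun*) and 1 lower (*Nr4a2*). Their summed share was 0.00394% to 0.166% in secondary and 0.0168% to 0.0552% in primary oocytes. Over all genes of plate 5, 2 of 4 were higher (*Jun* and *Dusp1*) and 1 lower, where 5.20% and 16.8% of all genes were. The median there was 1.83, against -0.40 for all genes, and over all genes of plate 6 0 members were compared.

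Genes with values on plate 5 and none on plate 6 added further leading genes. *Dusp1*, a MAP kinase phosphatase induced by stress, had 283, 122, 134, 189 and 0 CPM in secondary oocytes, against 0, 76.2, 32.1 and 0 CPM in primary oocytes, with a log2 ratio of 2.70 (1.54 to 4.10). *Rbm44*, which encodes an RNA-binding protein, had 38.8 to 94.5 CPM in secondary oocytes, above the 10.2 to 33.1 CPM of primary oocytes, from 22 and 5 counts. *Abcb1b*, a drug efflux transporter, had log2 ratio 2.23 (1.31 to 3.28), and *Robo3*, *Cobl* and *Coro2b* had 3.29, 1.99 and 1.88. *Smarcd1*, a subunit of the SWI/SNF chromatin remodelling complex, had 1 count in secondary oocytes and 76.2 to 82.7 CPM in the 4 primary ones, with a log2 ratio of -4.40 (-9.77 to -1.78). *Uhmk1*, a kinase, had 49.9 to 149 CPM in secondary oocytes and 49.6 to 985 CPM in primary oocytes, at -2.75 (-3.48 to -2.08) with overlapping cells. *Gtpbp6*, *Ptpdc1*, *Bag1* and *Rnh1* were at -3.86, -2.79, -2.62 and -2.62 from 1 to 3 counts in secondary oocytes.

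The most abundant transcripts were mostly clone-named. Of the 15 highest in secondary oocytes, 13 carried clone names, the others being *Bmp15* and *Khdc1b*. The highest of them was at 124324 CPM in secondary and 76469 CPM in primary oocytes, with log2 ratios of 0.26 on plate 5 and 0.94 on plate 6. CH36-205D18.4 was the one transcript with every secondary oocyte above every primary oocyte on both plates, at 18450 to 26815 CPM in secondary and 9239 to 17360 CPM in primary oocytes, with log2 ratios of 0.50 on plate 5 and 0.76 on plate 6. No role is given for these transcripts, which the annotation used here did not match by name.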

How the data were processed

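Single oocytes were prepared with SMART-Seq2, which carries no molecular identifiers, so PCR copies were counted separately. The authors aligned reads to GRCm38 (mm10) and handled the cells in Seurat 4, removing cells with few genes or a high somatic score. The counting tool is not given in the sources used here. The deposited table holds estimated counts per gene, of which 13.6% of the values above 0 were not whole. They were summed as deposited, without rounding. The authors also deposited cell metadata with the count of reads per cell, the fraction of reads that were aligned, coding, intronic, mitochondrial, ribosomal or duplicate, and a somatic module score.

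From the table of 25122 genes, 27 rows whose names had become dates (0.0743% of counts) were left out. CPM (counts scaled to the same total per cell) were computed from totals over the 14422 genes with values on both plates, or over all genes of a plate where a single plate is described. A gene was compared when a stage reached 50 CPM and had reads in 50% or more of its cells. The measure was the log2 ratio of summed CPM, secondary over primary, with an exact binomial 95% interval of the split of counts. A group at 0 was set to 3 counts over the group. Since the labels name no animal, no test was run, and a gene was called higher or lower at a log2 ratio of 1 in size. No 2 cells held identical values, and the highest correlation between cells was 0.866. The ratio calculation was tested on simulated data.

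The leading genes were the 12 in each direction with the largest change in the same direction within both plates, by the smaller of the plate ratios, clone names left out. Gene lists and members were chosen with earlier results of these data known. Genes were matched by symbol to GENCODE M21 (1077 of 1220). Alternatives covered scaling, minimums, thinning to 12000 counts, single plates and leaving out each cell. Totals without clone-named transcripts, the counts of separated genes and the sums of gene lists on those totals were added after seeing the data. Python 3.11.15, numpy 2.4.6, pandas 2.3.3, scipy 1.17.1, matplotlib 3.10.9 and R 4.3.3 with edgeR 4.0.16 (TMM) and DESeq2 1.42.0 (median of ratios, factors only) were used. One gene is not reported here.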

Additional observations from a re-analysis of the deposited data

Results flagged for a closer look

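In 7 of the 35 groups of 4 to 10 cells examined, 1 cell lay far from the others of its stage, and chance alone marks about 1 in 20 such groups. All were values of secondary oocytes, since the 12 primary oocytes form a group too large for this comparison, and they came from 5 cells. The flagged groups hold the same secondary oocytes, most are leading genes chosen from these data, and some have few counts. The 7 can therefore not be read as an excess over 1 in 20. *Jun* was at 962 CPM in secondary replicate 1, with 274 CPM in the next cell, and the same oocyte had an immediate early share of 0.166% with 0.0402% in the next. *Lrrn4* was at 2996 CPM in secondary replicate 3, with 1325 CPM in the next cell. *Acy1* was at 80.4 CPM in secondary replicate 2. *Rab5a* was at 355 CPM in secondary replicate 4, with 110 CPM next. *Gsto1* was at 52.998 CPM in secondary replicate 7, with 20.1 CPM next, and the somatic marker share of that oocyte was 0.0708%, with 0.0260% next. Without these cells the log2 ratios over both plates were 2.99 for *Jun*, 1.31 for *Lrrn4*, -3.60 for *Acy1*, -2.69 for *Rab5a* and -4.11 for *Gsto1*.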

How the results depend on the processing

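Counts depended on scaling and on the minimum. None of the 806 log2 ratios of the 26 named genes under the alternatives turned a called direction (75 moved beyond the spread between cells). These are the 12 leading genes in each direction and the 2 markers. The leading genes were chosen for large ratios of the same sign within both plates, so their direction was largely fixed by that choice. Over both plates, 55 genes were higher and 399 lower. With TMM factors these were 127 and 151, with median-of-ratios factors 127 and 153, without clone-named transcripts in the totals 169 and 190, and with a minimum of 3 counts only 287 and 704. A minimum of 100 CPM left 35 higher, totals over all counts of the plate left 177 lower, plate 5 alone gave 109 higher and plate 6 alone 137. Of called genes, 12.1% were higher in the comparison as reported, 45.7% with TMM factors and 47.1% without clone-named transcripts. Within both plates alike, 28 higher and 165 lower became 62 and 50 with TMM factors, 58 and 56 with median-of-ratios factors, and 71 and 69 without clone-named transcripts. With 3 counts only 165 were higher, and with all counts of the plate 73 were lower. On plate 5 alone, 109 higher and 352 lower became 192 and 183 with TMM factors, 179 and 211 with median-of-ratios factors, 446 and 676 with 3 counts only, and 67 and 230 at 100 CPM. The correlation of the plates, 0.374, was 0.431 with all counts of the plate, 0.243 with thinned cells, 0.197 with 3 counts only and 0.432 at 100 CPM. The cause of these shifts was not tested. Leaving out each cell in turn gave 49 to 68 higher and 372 to 426 lower over both plates, 21 to 35 and 141 to 188 within both plates, 112 to 155 and 349 to 412 on plate 5, and a correlation of 0.300 to 0.389. No paired analysis was possible because replicate numbers differ between the stages and the results come from no test. Depth limits genes with few counts, whose intervals span several log2 units.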
